A study of Mus musculus with 16 samples.

Results

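The genes described here were silent in KLF1-null mouse erythroblasts and were transcribed once a KLF1 fusion was active in the same line. They were taken from the authors' deposited table of changed genes in newly made RNA: a gene was kept when its level in K1 cells was at most 0.1 FPKM (fragments per kilobase of transcript, scaled to the depth of the library) and its level in K1-ER or K1-NanER cells was at least 1 FPKM. Both limits were met by 101 of its 1556 genes, and all 101 were listed at exactly 0.1 FPKM in K1 cells, a value taken here as a floor, since no gene of the table is lower in that column. Leaving out Hba-x, Beta-s, Ahsp, Epb4.9, Klf2 and 5 genes whose symbols begin with Slc or Rab left 91 members. The members were selected on their levels in K1, K1-ER and K1-NanER cells, so those levels and the calls against K1 are given below as a description only.

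The K1-NanER cells were clones B and X of K1, an erythroblast line that lacks KLF1, carrying Nan-KLF1 fused to the oestrogen receptor (ER). The K1-ER cells were clones A and C of the same line with the wild-type KLF1-ER fusion, and the K1 cells were the parental line without a fusion. All received 200 nM 4-hydroxytamoxifen, which brings an ER fusion into the nucleus, and 500 uM 4-thiouridine (4sU) for 1 h to mark new RNA. The column header of K1 in the table does not name tamoxifen, while the labels of the K1 samples do. Each group had 2 libraries but 1 deposited value per gene, so no spread between replicates is given and the depth is unknown. Clones were set against uncloned parental cells, and a clone's own differences cannot be told apart from the response to the fusion. Binding came from 1 chromatin immunoprecipitation (ChIP-seq) library for Nan-KLF1 in K1-NanER cells and 1 for KLF1 in K1-ER cells, each made from 3 pooled replicates after 3 h of tamoxifen and set against its input. Whole fetal livers at embryonic day 14.5 gave polyadenylated RNA, after removal of globin RNA, from 3 Nan/+ and 3 wild-type embryos.

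KLF1 is a zinc finger transcription factor of red cell precursors that binds CACCC-type sequences and activates globin, membrane, haem and cell cycle genes. The Nan mutation lies in the second zinc finger and changes which sequences the factor prefers, and Nan/+ mice have a haemolytic anaemia. The set shows which genes at the floor without KLF1 were transcribed with either fusion.

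Markers of cell types were looked up in the table. Every gene there passed the authors' selection, so they cannot check the identity of the line. Of 70 late erythroid genes listed for this work, 28 are in the table, with a range of 0.1 to 129 FPKM and a median of 13.5 FPKM in K1 cells. Of 39 granulocyte, macrophage and mast cell genes and of 17 endothelial genes, 0 are in the table, so their levels were not analysed here. Klf1 itself has no row in the table used, and its level in the lines was not analysed here either. Of the 28 late erythroid genes, 10 were called higher and 4 lower than in K1 cells in K1-NanER cells, while 23 were called higher and 0 lower in K1-ER cells. Of all genes of the table, 47.4% were called higher in K1-NanER cells and 37.9% in K1-ER cells. Only 8 members are in any of the cell type and pathway lists used: Pklr of the late erythroid list, Tex13 and Tssk4 of the testis list, Dhh and Insl6 of the ligands, Cd79a of the lymphoid list, Lgals7 of the epithelial list and Shox2 of the developmental regulators. Since Hba-x, Beta-s, Ahsp and Epb4.9 were left out by name, the members do not show how many red cell genes met the limits.

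The members were transcribed at low levels. Their median level was 1.47 FPKM in K1-NanER cells and 2.12 FPKM in K1-ER cells. Over all 1556 genes of the table the medians were 18 FPKM in K1-NanER cells and 19.5 FPKM in K1-ER cells. Members at 5 FPKM or more numbered 9 in K1-NanER cells and 11 in K1-ER cells, and 44 of the 91 reached 1 FPKM in both lines. Just inside the limit on the induced level stood Ripk3, Popdc3 and Ccdc102a, whose higher level of the lines was 1.26, 1.35 and 1.38 FPKM. Just outside the limit on the K1 level stood Kif1b, Raph1 and Itga5, at 0.118, 0.295 and 0.414 FPKM in K1 cells.

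By the q value of the authors' deposited table, 55 members were called higher (q of at most 0.05) in K1-NanER cells than in K1 cells, where 47.4% of all genes of the table were called higher. In K1-ER cells 66 members were called higher than in K1 cells, where the share over the table was 37.9%. Both lines called 30 members, against 18.6% of the table, K1-NanER alone called 25, against 28.8% of the table, and K1-ER alone called 36, against 19.3% of the table. Since the rule used this contrast, the counts carry no test. The calls followed the level closely: all 25 members not called in K1-ER cells have a p-value of exactly 1 in the authors' deposited table, and none of them exceeded 1.32 FPKM there. Of the 36 members not called in K1-NanER cells 33 have a p-value of exactly 1, at up to 1.31 FPKM. The other 3 are Crip1, 1700020A23Rik and 2010204K13Rik, with K1-NanER q values of 0.176, 0.0842 and 0.165 by the authors' deposited table. A call in 1 line alone does not show a difference between the lines, which was not tested. 1700020A23Rik, for example, was at 1.58 FPKM in K1-NanER cells and 3.36 FPKM in K1-ER cells.

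**Figure D1:**
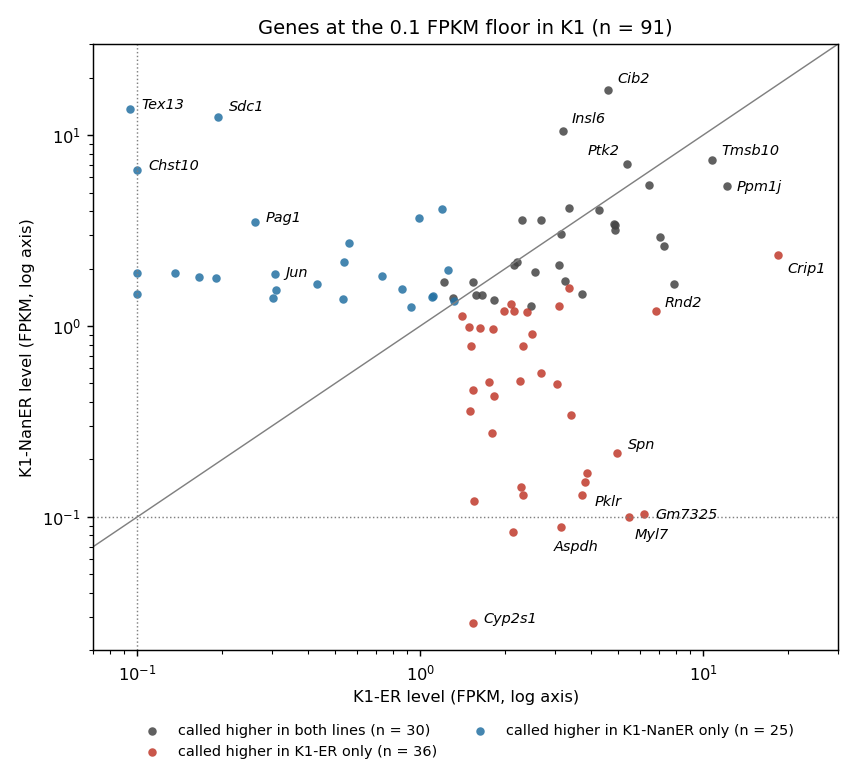
Level of the 91 members in K1-ER cells (horizontal, FPKM, log axis) and K1-NanER cells (vertical, FPKM, log axis), 1 deposited value per group; the solid line marks equal levels and the dotted lines the 0.1 FPKM floor of K1. Of the 30 genes called in both lines 23 lie within 2-fold of the line of equal levels and 7 beyond it; genes called in K1-ER only or K1-NanER only reach farther from it, though some of them lie close to it too.

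The deposited levels of the lines lay further apart for the members than for the other genes of the table. By the ratio of the deposited levels, 34 members were higher in K1-NanER cells and 57 were higher in K1-ER cells. At least 2-fold higher levels stood in K1-NanER cells for 21 members (23.1%, against 13.8% of the table) and in K1-ER cells for 33 members (36.3%, against 22.4% of the table). At least 4-fold higher levels stood in K1-NanER cells for 14 members (15.4%, against 2.12% of the other 1465 genes). They stood in K1-ER cells for 22 members (24.2%, against 4.85% of the other genes). The median log2 ratio of K1-NanER over K1-ER levels was -0.54 for the members and -0.25 for the other genes. The rule asked for 1 FPKM in only 1 of the lines and the levels are low, so the spread of ratios is in part fixed by the choice of members. Among the 30 called in both lines, 23 lay within 2-fold, as did 238 of the 289 genes of the table called higher in both (82.4%). Ratios of K1-NanER over K1-ER for the 30 ran from 0.212 to 3.73.

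The promoters of 5 members are printed to show the motifs that the authors gave to peaks of both factors, of KLF1 alone and of Nan-KLF1 alone. The authors gave each peak a location class, a nearest gene and, at its centre, a motif of 8 bases. The windows below were taken from RefSeq on build GRCm38.p6, run from 250 bases before to 50 after a transcript start, and are written 5′ to 3′ along the gene's strand. Capitals mark each match, on either strand, to the motif that the authors gave the promoter peak. Tmsb10 and Pgf have further RefSeq windows, not printed, with fewer matches or none. The peaks are on build mm9, so a match says that these letters stand in the window and not that they lie under the summit.
Tmsb10 (chr6:72958434-72958733, minus strand): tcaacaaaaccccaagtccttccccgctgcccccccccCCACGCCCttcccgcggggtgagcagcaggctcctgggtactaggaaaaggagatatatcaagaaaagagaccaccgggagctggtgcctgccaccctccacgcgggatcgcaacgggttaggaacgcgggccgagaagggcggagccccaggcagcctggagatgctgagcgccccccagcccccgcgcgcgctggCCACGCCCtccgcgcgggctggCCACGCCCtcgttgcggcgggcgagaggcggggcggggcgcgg
Cyp2s1 (chr7:25816476-25816775, minus strand): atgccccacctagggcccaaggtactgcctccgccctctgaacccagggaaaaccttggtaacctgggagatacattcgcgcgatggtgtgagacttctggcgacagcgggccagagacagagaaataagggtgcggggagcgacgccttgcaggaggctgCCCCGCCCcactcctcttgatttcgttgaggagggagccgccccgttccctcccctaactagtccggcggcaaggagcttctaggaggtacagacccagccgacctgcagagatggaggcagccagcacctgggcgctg
Mertk (chr2:128698665-128698964, plus strand): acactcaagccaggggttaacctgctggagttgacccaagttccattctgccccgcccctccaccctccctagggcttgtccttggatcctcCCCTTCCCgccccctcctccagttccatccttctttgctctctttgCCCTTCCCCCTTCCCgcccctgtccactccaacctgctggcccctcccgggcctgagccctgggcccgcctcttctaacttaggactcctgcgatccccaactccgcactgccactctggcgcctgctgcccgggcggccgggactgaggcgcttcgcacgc
Anxa5 (chr3:36475838-36476137, minus strand): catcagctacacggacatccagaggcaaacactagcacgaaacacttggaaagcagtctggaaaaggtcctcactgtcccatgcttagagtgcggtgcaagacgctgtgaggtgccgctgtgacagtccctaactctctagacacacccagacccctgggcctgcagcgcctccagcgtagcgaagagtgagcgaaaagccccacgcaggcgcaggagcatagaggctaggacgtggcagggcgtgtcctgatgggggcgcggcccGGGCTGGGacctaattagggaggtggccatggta
Pgf (chr12:85175933-85176232, minus strand): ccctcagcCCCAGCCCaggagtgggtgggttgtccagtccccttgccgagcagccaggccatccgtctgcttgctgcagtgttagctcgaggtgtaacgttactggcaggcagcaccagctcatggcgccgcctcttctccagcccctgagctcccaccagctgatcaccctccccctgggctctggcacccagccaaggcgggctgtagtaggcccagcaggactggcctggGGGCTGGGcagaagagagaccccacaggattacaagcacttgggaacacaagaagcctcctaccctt

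Tmsb10, which codes for thymosin beta 10, a binder of actin monomers, was at 7.37 FPKM in K1-NanER cells and 10.8 FPKM in K1-ER cells. Both factors had a promoter peak there with CCACGCCC at the centre, of 87.7-fold enrichment over input for Nan-KLF1 and 296-fold for KLF1, and the window holds that motif 3 times. Cyp2s1, a cytochrome P450, also had promoter peaks of both factors, both on CCCCGCCC, of 127-fold for Nan-KLF1 and 113-fold for KLF1. Its level was 0.0279 FPKM in K1-NanER cells and 1.53 FPKM in K1-ER cells, so a peak of both factors stood at a gene listed above the floor in 1 line only. Mertk, a receptor kinase for the uptake of dying cells, had a KLF1 promoter peak alone, of 69.1-fold on CCCTTCCC. It was at 2.10 FPKM in K1-NanER cells and 3.09 FPKM in K1-ER cells.

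Anxa5, which codes for annexin A5, a binder of phosphatidylserine, was at 4.15 FPKM in K1-NanER cells and 3.35 FPKM in K1-ER cells. Its overlapping promoter peaks had different central motifs, CCCAGCCC with A after CCC for Nan-KLF1 (136-fold) and CCACGCCC with C after CCA for KLF1 (333-fold). The window holds the first of these and not the second. Pgf, which codes for placental growth factor, had a Nan-KLF1 promoter peak alone, of 87.7-fold on CCCAGCCC, and was at 3.59 FPKM in K1-NanER cells and 2.29 FPKM in K1-ER cells. Among all 32851 promoter windows of the RefSeq table, CCACGCCC stands in 5.33%, CCCAGCCC in 6.09%, CCCCGCCC in 17.6% and CCCTTCCC in 5.14%, on either strand.

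Across the members 69 matched the RefSeq promoters, 9 of them by an older symbol, with 86 windows. CCNCNCCC, which allows only C at base 4, stood on either strand in 71 of 86 windows (82.6%), in 76.3% of the windows of the other genes of the table and in 49.5% of all windows. CCNNNCCC, which frees base 4 and holds every match of the first motif, stood in 77 of 86 windows of members (89.5%), in 90.0% of those of the other genes of the table and in 70.6% of all windows. Of 12 members with a motif at a promoter or UTR peak and a window, 11 hold that motif in a window.

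Cytoskeleton and cell shape genes were a group of 8. All 8 were called in K1-ER cells, 4 of them also in K1-NanER cells. Of all 91 members 66 were called in K1-ER cells and 55 in K1-NanER cells, against 37.9% and 47.4% of the table. Each member is called in at least 1 line, and the groups were chosen with earlier results known. Nothing is therefore read from the counts of calls in this group or those below. Beside Tmsb10, Ptk2, the focal adhesion kinase, stood at 7.02 FPKM in K1-NanER cells and 5.40 FPKM in K1-ER cells. Cnn2, an actin-binding calponin, was at 3.03 FPKM in K1-NanER cells and 3.15 FPKM in K1-ER cells. Gsn, the actin-severing gelsolin, was at 1.70 FPKM in K1-NanER cells and 1.54 FPKM in K1-ER cells. These 4 differed between the lines by less than 2-fold. The other 4 were lower in K1-NanER cells. Rnd2, a small GTPase that acts on cell shape, was at 1.2 FPKM in K1-NanER cells and 6.80 FPKM in K1-ER cells. Gm7325, which RefSeq lists as Mymx, a small membrane protein of muscle cell fusion, was at 0.104 FPKM in K1-NanER cells and 6.19 FPKM in K1-ER cells, the largest ratio in that direction among members above the floor in both. It also had the strongest KLF1 peak of any member, a promoter peak of 369.9-fold on CCCCACCC at chr17:45737784-45739429 on mm9, with no Nan-KLF1 peak assigned. Myl7, the atrial myosin light chain, stayed at the floor of 0.1 FPKM in K1-NanER cells and reached 5.48 FPKM in K1-ER cells. Ift81, a transport protein of cilia, was at 0.986 FPKM in K1-NanER cells and 1.48 FPKM in K1-ER cells.

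Genes of the cell surface that recognise phosphatidylserine or mediate adhesion formed a group of 6. Mfge8, a secreted bridge between phosphatidylserine on dying cells and phagocytes, was at 2.71 FPKM in K1-NanER cells and 0.561 FPKM in K1-ER cells, with promoter peaks of both factors and no central motif in either. Anxa5 and Mfge8 thus had promoter peaks of both factors, and Mertk had one of KLF1 alone. Anxa5 and Mertk passed 2 FPKM in both lines, and Mfge8 in K1-NanER cells only. No promoter peak was assigned to Sdc1, Efna4 or Spn. Sdc1, the heparan sulfate carrier syndecan 1, was at 12.5 FPKM in K1-NanER cells and 0.193 FPKM in K1-ER cells, the largest ratio toward K1-NanER among members above the floor in both, and no peak of either factor was assigned to it. Efna4, a ligand of Eph receptors, was at 1.89 FPKM in K1-NanER cells and 0.136 FPKM in K1-ER cells, with a Nan-KLF1 peak alone in an intron on CCCTGCCC. Spn, the leukocyte sialoglycoprotein CD43, ran the other way, at 0.216 FPKM in K1-NanER cells and 4.95 FPKM in K1-ER cells.

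Enzymes of heparan sulfate and sugar modification had no common direction. Ext1, which polymerises heparan sulfate, was at 3.59 FPKM in K1-NanER cells and 2.66 FPKM in K1-ER cells. Hs3st6, which sulfates it, was at 1.66 FPKM in K1-NanER cells and 7.86 FPKM in K1-ER cells. Chst10, a sulfotransferase of the HNK-1 epitope, was at 6.56 FPKM in K1-NanER cells and at the floor of 0.1 FPKM in K1-ER cells. Only Hs3st6 of these 3 had an assigned peak, of KLF1, at its promoter.

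**Figure D2:**
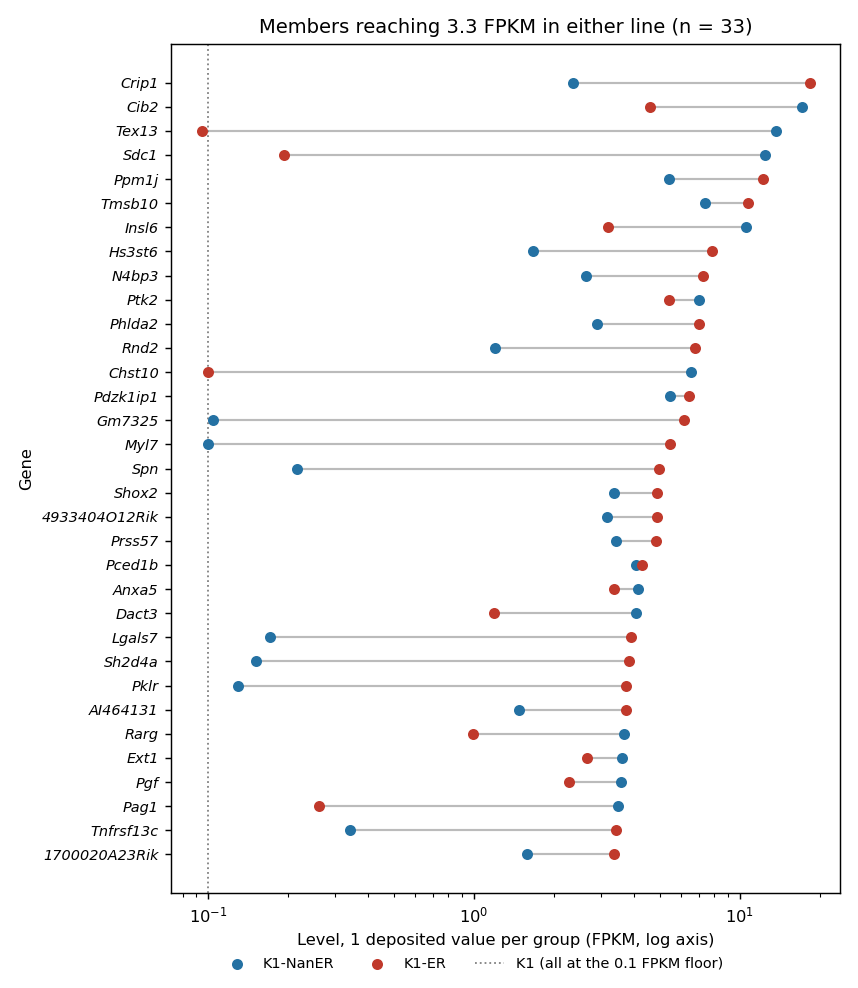
Levels of the 33 members that reached 3.3 FPKM in either line (FPKM, log axis), blue points for K1-NanER and red points for K1-ER, 1 deposited value per group; the dotted line is the 0.1 FPKM at which K1 is listed for all of them. Tex13, Sdc1 and Chst10 stand far to the right in K1-NanER only, and Gm7325, Myl7 and Spn in K1-ER only.

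Among secreted ligands and their binders, Insl6, an insulin-like peptide known from testis, was at 10.6 FPKM in K1-NanER cells and 3.19 FPKM in K1-ER cells. Both factors had an overlapping promoter peak there, of 107-fold with no central motif for Nan-KLF1 and 137-fold on CCACGCCC for KLF1. Dhh, the ligand desert hedgehog, was at 0.143 FPKM in K1-NanER cells and 2.28 FPKM in K1-ER cells. Il22, a cytokine that acts on epithelia, was at 0.906 FPKM in K1-NanER cells and 2.48 FPKM in K1-ER cells, without a peak. Fstl3, an inhibitor of activin, was at 1.27 FPKM in K1-NanER cells and 3.08 FPKM in K1-ER cells. The locus of Fstl3 overlaps that of Prss57, a serine protease of neutrophil granules, listed at 3.42 FPKM in K1-NanER cells and 4.84 FPKM in K1-ER cells, so how the reads were split between them is uncertain. With Pgf, these 5 ligand and binder genes had 2 higher in K1-NanER cells and 3 higher in K1-ER cells.

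Transcription factors and chromatin proteins numbered 7. Rarg, a retinoic acid receptor, was at 3.67 FPKM in K1-NanER cells and 0.988 FPKM in K1-ER cells, with 2 Nan-KLF1 and 3 KLF1 peaks in its introns. Jun, a subunit of AP-1, was at 1.88 FPKM in K1-NanER cells and 0.306 FPKM in K1-ER cells, and its nearest-gene peak was of Nan-KLF1 alone, 29.7 kb from the locus and without a central motif. Onecut3, a homeobox factor, was at 1.43 FPKM in K1-NanER cells and 1.11 FPKM in K1-ER cells. These 3 were called in K1-NanER cells alone. Shox2, a homeobox factor of limb and heart development, was at 3.37 FPKM in K1-NanER cells and 4.9 FPKM in K1-ER cells. Npm2, a histone chaperone of the egg, was at 1.92 FPKM in K1-NanER cells and 2.55 FPKM in K1-ER cells, and lies 11.3 kb from the red cell membrane gene Epb4.9. Mef2b, a MADS box factor, was the one of the 7 called in K1-ER cells alone, at 0.357 FPKM in K1-NanER cells and 1.5 FPKM in K1-ER cells.

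Immune receptors and signalling adaptors gave 8 members. Pag1, a membrane adaptor that recruits the kinase Csk, was at 3.50 FPKM in K1-NanER cells and 0.260 FPKM in K1-ER cells, with 2 Nan-KLF1 peaks and none of KLF1. Igtp, an interferon-induced GTPase, was at 1.4 FPKM in K1-NanER cells and 0.303 FPKM in K1-ER cells. Ripk3, the kinase of necroptosis, was at 1.26 FPKM in K1-NanER cells and 0.930 FPKM in K1-ER cells. Those 3 were called in K1-NanER cells alone. Tec, a kinase of antigen receptor signalling, was at 2.10 FPKM in K1-NanER cells and 2.14 FPKM in K1-ER cells. Il27ra, a cytokine receptor chain, was at 1.46 FPKM in K1-NanER cells and 1.66 FPKM in K1-ER cells. Tec and Il27ra were thus nearly equal in the lines. The remaining 3 were called in K1-ER cells alone. Tnfrsf13c, the BAFF receptor of B cells, was at 0.341 FPKM in K1-NanER cells and 3.42 FPKM in K1-ER cells, with 3 KLF1 peaks. Cish, an inhibitor of cytokine receptor signalling, was at 0.429 FPKM in K1-NanER cells and 1.83 FPKM in K1-ER cells. Cd79a, a chain of the B cell receptor, was at 1.13 FPKM in K1-NanER cells and 1.41 FPKM in K1-ER cells.

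Metabolic enzymes were called in K1-ER cells alone. Pklr, the pyruvate kinase of red cells and liver, was at 0.130 FPKM in K1-NanER cells and 3.74 FPKM in K1-ER cells. It was the one gene of the late erythroid list among the members, after the exclusions by name. It had 2 KLF1 peaks, 1 of them at the promoter, and none of Nan-KLF1. Aspdh, an aspartate dehydrogenase homologue, was at 0.0883 FPKM in K1-NanER cells and 3.13 FPKM in K1-ER cells. With Cyp2s1, all 3 enzymes were at or near the floor in K1-NanER cells.

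Kinases, phosphatases, channels and calcium-binding proteins were a mixed group. Cib2, a calcium and integrin binding protein needed for hearing, was at 17.2 FPKM in K1-NanER cells and 4.61 FPKM in K1-ER cells, the highest K1-NanER level of any member, with no assigned peak. Ppm1j, a protein phosphatase, was at 5.44 FPKM in K1-NanER cells and 12.2 FPKM in K1-ER cells. No peak was assigned to Ppm1j. The nearest summits lie 8.93 kb away for Nan-KLF1 and 8.92 kb away for KLF1, and the locus lies 18.5 kb from the Nan-KLF1 peak of largest fold enrichment in the list, 1394-fold at chr3:104564899-104565752 on mm9, which the authors assigned to Fam19a3. Ltk, a receptor kinase, was at 1.37 FPKM in K1-NanER cells and 1.82 FPKM in K1-ER cells. Nrbp2, a pseudokinase, was at 1.46 FPKM in K1-NanER cells and 1.57 FPKM in K1-ER cells. Dnajb5, a chaperone, was at 1.4 FPKM in K1-NanER cells and 1.31 FPKM in K1-ER cells. All of these were called in both lines, and from Ltk to Dnajb5 the lines differed little. Clic1, an intracellular chloride channel, was at 0.496 FPKM in K1-NanER cells and 3.05 FPKM in K1-ER cells. Cpne7, a calcium-dependent membrane binder, was at 0.965 FPKM in K1-NanER cells and 1.81 FPKM in K1-ER cells. Fkbp1b, which stabilises ryanodine receptor channels, was at 0.461 FPKM in K1-NanER cells and 1.54 FPKM in K1-ER cells. A KLF1 promoter peak stood at each of Clic1, Cpne7 and Fkbp1b.

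Chrnb1 and Dok7, genes of the nerve-muscle junction, were called in K1-NanER cells alone. Chrnb1, a subunit of the muscle acetylcholine receptor, was at 1.57 FPKM in K1-NanER cells and 0.859 FPKM in K1-ER cells, with a Nan-KLF1 peak alone. Dok7, which activates the receptor kinase MuSK, was at 1.47 FPKM in K1-NanER cells and at the floor in K1-ER cells. The membrane traffic genes Vps37d, a subunit of ESCRT-I, and Snx18, a sorting nexin, were likewise called in K1-NanER cells alone. Vps37d was at 2.17 FPKM in K1-NanER cells and 0.539 FPKM in K1-ER cells. Snx18 was at 1.89 FPKM in K1-NanER cells and at the floor in K1-ER cells.

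Of the testis genes, Tex13 was at 13.7 FPKM in K1-NanER cells and 0.0944 FPKM in K1-ER cells, under the floor used for K1. Its peak was of Nan-KLF1 alone, 38.5 kb from the locus at chrX:137386097-137386576 on mm9, of 127-fold on CCACTCCC. Tssk4, a kinase of sperm cells, was at 0.977 FPKM in K1-NanER cells and 1.62 FPKM in K1-ER cells. The members of the ubiquitin ligase group were 1 called in both lines (March9, 2.16 FPKM in K1-NanER cells and 2.20 FPKM in K1-ER cells), 2 called in K1-ER cells alone (Asb12 and Fbxo2) and 1 called in K1-NanER cells alone (Fbxo16). Fbxo2, which binds sugar chains of misfolded proteins, was at 0.131 FPKM in K1-NanER cells and 2.31 FPKM in K1-ER cells.

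Crip1, Pdzk1ip1, Phlda2, Dact3 and Lgals7 fall in none of these groups. Crip1, a LIM domain protein, was at 2.37 FPKM in K1-NanER cells and 18.4 FPKM in K1-ER cells, the highest K1-ER level of any member. Pdzk1ip1, a small membrane protein encoded next to Tal1, was at 5.46 FPKM in K1-NanER cells and 6.46 FPKM in K1-ER cells. It held the strongest Nan-KLF1 peak of any member, 331-fold, on CCCAGCCC, which overlapped a KLF1 peak of 225-fold on the same motif. The Nan-KLF1 peak stands at chr4:114768072-114768720 on mm9, its summit 1.88 kb outside the locus. Phlda2, an imprinted regulator of placental growth, was at 2.91 FPKM in K1-NanER cells and 7.02 FPKM in K1-ER cells. Dact3, an antagonist of Wnt signalling, was at 4.08 FPKM in K1-NanER cells and 1.19 FPKM in K1-ER cells, with a Nan-KLF1 peak alone in an intron on CCCAGCCC. Lgals7, an epithelial galectin, was at 0.171 FPKM in K1-NanER cells and 3.90 FPKM in K1-ER cells. Of these 5, Dact3 was the one higher in K1-NanER cells.

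The remaining 27 members are given no role here. N4bp3 was at 2.63 FPKM in K1-NanER cells and 7.24 FPKM in K1-ER cells, and shares its locus with D930048N14Rik (1.28 FPKM in K1-NanER cells, 2.46 FPKM in K1-ER cells), so the split of their reads is uncertain. 4933404O12Rik was at 3.17 FPKM in K1-NanER cells and 4.88 FPKM in K1-ER cells. Pced1b was at 4.06 FPKM in K1-NanER cells and 4.28 FPKM in K1-ER cells. These 4 and AI464131, which RefSeq lists as Myorg (1.47 FPKM in K1-NanER cells, 3.73 FPKM in K1-ER cells), and Lrrc1 (1.70 FPKM in K1-NanER cells, 1.21 FPKM in K1-ER cells) were called in both lines. Sh2d4a was at 0.152 FPKM in K1-NanER cells and 3.83 FPKM in K1-ER cells, with a KLF1 peak of 274-fold in a UTR. Lrrc46 was at 1.80 FPKM in K1-NanER cells and 0.165 FPKM in K1-ER cells. Maged2 was at 1.77 FPKM in K1-NanER cells and 0.190 FPKM in K1-ER cells. Lrrc46 and Maged2 were among the 5 largest ratios toward K1-NanER and had no peak. Ankrd35 (1.55 FPKM in K1-NanER cells, 0.309 FPKM in K1-ER cells), 9930012K11Rik (1.83 FPKM in K1-NanER cells, 0.730 FPKM in K1-ER cells) and Ccdc102a (1.38 FPKM in K1-NanER cells, 0.533 FPKM in K1-ER cells) had overlapping peaks of both factors. Gm2382 had a KLF1 promoter peak alone, of 157-fold on CCACGCCC, and was at 0.0836 FPKM in K1-NanER cells and 2.12 FPKM in K1-ER cells. No peak was assigned to 1110007C09Rik, 4921530D09Rik, 4931417G12Rik, C430002E04Rik, Fam151b, Gm15446, Gm9047, LOC100504608 and Nhlrc4, called in K1-ER cells alone, nor to Gm4636, Popdc3 and Sh2d7, called in K1-NanER cells alone. A gene without an assigned peak can still hold a summit. Summits of both factors lie inside the loci of Nhlrc4 and Pced1b, and a KLF1 summit lies inside the locus shared by N4bp3 and D930048N14Rik.

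Peaks were a readout the rule did not use. The authors assigned a Nan-KLF1 peak to 30 of 91 members (33.0%, 95% Wilson interval 24.2 to 43.1) and to 383 of 1465 other genes of the table (26.1%, 24.0 to 28.5). A KLF1 peak was assigned to 37 members (40.7%, 31.1 to 50.9) and to 676 other genes (46.1%, 43.6 to 48.7). Peaks of both factors stood at 21 members (23.1%, against 21.6% of the other genes) and of Nan-KLF1 alone at 9 (9.89%, against 4.51%). Peaks of KLF1 alone stood at 16 members (17.6%, against 24.5%) and of neither at 45 (49.5%, against 49.4%). These intervals cover counting error only, genes of 1 experiment are not replicates, and shares were not tested against each other. Over all members the intervals of either factor overlapped those of the other genes.

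The shares were also counted by call. Of the 25 members called in K1-NanER cells alone, 12 had a Nan-KLF1 peak (48%, 30.0 to 66.5), against 90 of 423 other genes with that call (21.3%, 17.6 to 25.4). In 6 of the 25 the peak was of Nan-KLF1 alone (Chrnb1, Dact3, Efna4, Jun, Pag1 and Tex13), which is 24%, against 6.15% of the other genes. Nan-KLF1 peaks were thus counted in a larger share of these members than of other genes with the same call, with intervals that do not overlap under the authors' nearest-gene assignment. KLF1 peaks stood at 7 of the 25 members (28%, 14.3 to 47.6) and at 40.4% of the other genes with that call. Of the 36 members called in K1-ER cells alone, 7 had a Nan-KLF1 peak (19.4%, 9.75 to 35.0), against 42.8% of the other genes. A Nan-KLF1 peak alone stood at 0 of the 36, and it was as rare among the other genes, at 4 of 264 (1.52%). A KLF1 peak stood at 18 of the 36 members (50%, 34.5 to 65.5), against 199 of 264 other genes (75.4%, 69.8 to 80.2). Of the 30 members called in both lines, 11 had a Nan-KLF1 peak (36.7%, 21.9 to 54.5), against 45.9%, and 12 had a KLF1 peak (40%, 24.6 to 57.7), against 73.4% (67.7 to 78.4). By nearest gene the KLF1 share of the members called in K1-ER cells was thus under that of other called genes. Their intervals do not overlap, which describes the counts and is not a test, since genes are not replicates. The Nan-KLF1 share of the members called in K1-ER cells alone was likewise under that of the other genes with that call (37.0 to 48.8), without overlap.

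Some of these intervals came to overlap when a peak was tied to a gene in another way, which does not show that a difference was gone. For the members called in K1-ER cells alone, they overlapped for promoter peaks and stayed apart for summits within 10 or 50 kb. Their promoter shares were still lower for both factors. A Nan-KLF1 promoter peak stood at 2.78% of these members, against 17% of the other genes with that call. For Nan-KLF1 and the members called in K1-NanER cells alone, the intervals overlapped under each of the 3 other rules. Promoter peaks gave 12% (4.17 to 30.0) against 8.27% (6.01 to 11.3), any summit within 10 kb of the locus 40% (23.4 to 59.3) against 25.5% (21.6 to 29.9), and any summit within 50 kb 60% (40.7 to 76.6) against 39.2% (34.7 to 44.0). For KLF1 and the members called in both lines, promoter peaks gave 36.7% (21.9 to 54.5) against 40.9% (35.1 to 47.0), and a summit within 10 kb 70% (52.1 to 83.3) against 78.8% (73.4 to 83.3), again with overlap. For KLF1 and the members called in K1-ER cells alone, promoter peaks gave 27.8% (15.8 to 44.0) against 45.1% (39.2 to 51.1), which overlap. A KLF1 summit within 10 kb stood at 55.6% (39.6 to 70.5) of them against 85.6% (80.9 to 89.3), where the intervals stay apart. The median distance from the locus to the nearest KLF1 summit was 2.23 kb for these 36 and 0.0150 kb for the 264 other genes. The loci of the members were also shorter, with a median of 8.49 kb against 18.5 kb for the other genes, and 54.9% against 32.1% were under 10 kb. Members called in K1-ER cells had a median level of 2.61 FPKM there, against 32.3 FPKM over all rises called in that line. The part of locus length or of level in the peak shares was not tested.

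**Figure D3:**
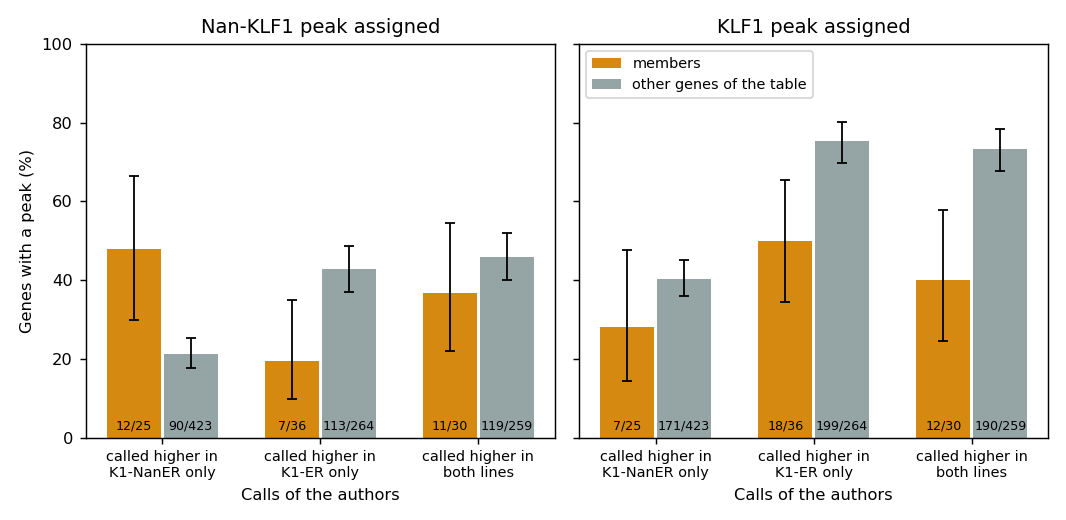
Share of genes with an assigned Nan-KLF1 peak (left) or KLF1 peak (right), in percent, for members (orange) and other genes of the table (grey), by the authors' calls; bars carry 95% Wilson intervals, which cover counting error only, and the counts stand at the foot of each bar. The orange bar is higher than the grey bar for Nan-KLF1 peaks among genes called higher in K1-NanER only (12 of 25 against 90 of 423), and lower in the other 5 pairs.

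The members held 36 Nan-KLF1 peaks and 51 KLF1 peaks. Of the Nan-KLF1 peaks 9 were at promoters and 15 were distal (41.7%, 27.1 to 57.8, against 25.1% of all 2758 peaks of that factor). Of the KLF1 peaks 23 were at promoters (45.1%, 32.3 to 58.6, against 29.4% of all 5326) and 9 were in introns (17.6%, 9.57 to 30.3, against 36.6% of all). Their median fold enrichment was 112 for Nan-KLF1, against 107 over that whole list, and 69.1 for KLF1, against 75.6 over that list. Base 4 of the central motif was A or T in 30.6% of the members' Nan-KLF1 peaks and 13.7% of their KLF1 peaks, where the whole lists had 33.9% and 15.6%. It was C in 38.9% of the Nan-KLF1 peaks and 66.7% of the KLF1 peaks, against 34.3% and 63.2% in the lists. The shares of base 4 in the members' peaks therefore lay within counting error of those of the lists. Among the whole motifs counted, CCCCTCCC in Nan-KLF1 peaks was at 16.7% (7.87 to 31.9) against 7.61% (6.68 to 8.66) of the list. The list's share lies just under the members' interval, but the intervals overlap, and this is 1 of several motifs counted. In KLF1 peaks CCCCTCCC was at 11.8% (5.51 to 23.4) against 5.95%. An overlapping peak of the other factor accompanied 18 of the 36 Nan-KLF1 peaks and 17 of the 51 KLF1 peaks. The share of the whole lists with such an overlap was not counted, so nothing is read from these counts. The authors' own intersection is stricter than an overlap of 1 bp. It holds 12 of the members' 36 Nan-KLF1 peaks (33.3%, 20.2 to 49.7, against 27.6% of all) and 12 of their 51 KLF1 peaks (23.5%, 14.0 to 36.8, against 14.3% of all).

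The fetal livers gave the other readout independent of the rule. In the authors' deposited table of liver genes 9 members are listed (9.89%), all with a q of at most 0.05, against 6.56% of all genes of the 4sU table, of which the members are a part. The liver holds many cell types, and fewer cells of a type and less RNA per cell cannot be told apart in it. Of the 9 members, 8 rose in Nan/+ livers and 1 fell, by the authors' test, on 1 deposited value for each group of 3 livers. Rises also outnumber falls in the whole liver table (598 against 195) and among the other genes of the 4sU table listed there (59 against 34).

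Pdzk1ip1 had 304 FPKM in Nan/+ livers and 13.2 FPKM in wild-type livers, with a log2 fold change of 4.52 (q = 0.00244) in the authors' deposited table. Insl6 had 8.01 FPKM in Nan/+ livers and 0.41 FPKM in wild-type livers, a log2 fold change of 4.29 (q = 0.00244) in the same authors' deposited table. In the lines Pdzk1ip1 was at 5.46 FPKM in K1-NanER cells and 6.46 FPKM in K1-ER cells. Insl6 was at 10.6 FPKM in K1-NanER cells and 3.19 FPKM in K1-ER cells. Both genes had overlapping peaks of both factors, and a link of these peaks to the liver levels was not tested. Cish had 25.8 FPKM in Nan/+ livers and 6.0 FPKM in wild-type livers. Prss57 had 3.07 FPKM in Nan/+ livers and 0.9 FPKM in wild-type livers. Crip1 had 92.4 FPKM in Nan/+ livers and 28.3 FPKM in wild-type livers. Each of these passed with a q of 0.00244 in the authors' deposited table, and Cish and Crip1 were called in K1-ER cells alone. 2010204K13Rik had 21.4 FPKM in Nan/+ livers and 8.36 FPKM in wild-type livers (q = 0.0260 in the authors' deposited table). Tmsb10 had 335 FPKM in Nan/+ livers and 143 FPKM in wild-type livers (q = 0.0408 in the authors' deposited table). Phlda2 had 18.1 FPKM in Nan/+ livers and 8.49 FPKM in wild-type livers (q = 0.0493 in the authors' deposited table), the weakest call of the 9.

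Pklr was the member that fell in Nan/+ livers. It had 81.0 FPKM in Nan/+ livers and 227 FPKM in wild-type livers, a log2 fold change of -1.49 (q = 0.00244) in the authors' deposited table. In the lines it was also lower in K1-NanER cells than in K1-ER cells, at 0.130 FPKM against 3.74 FPKM. Of the 8 that rose in Nan/+ livers, Insl6 was the only one with a higher level in K1-NanER cells than in K1-ER cells.

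**Figure D4:**
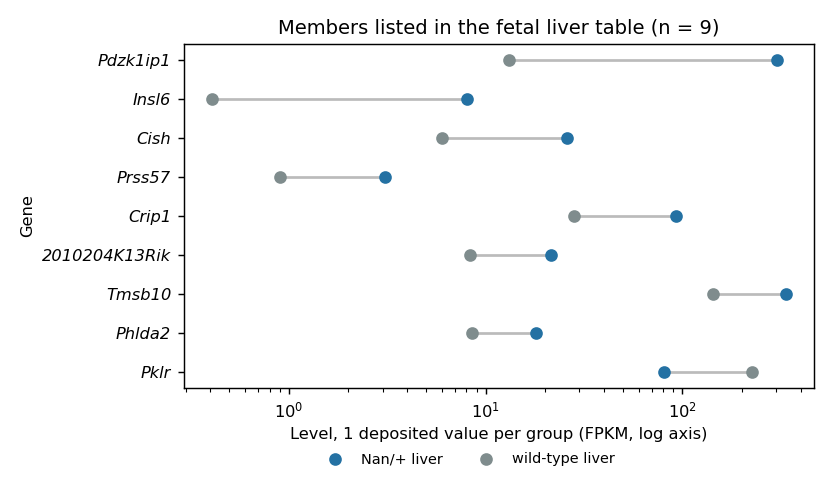
Levels of the 9 members listed in the authors' liver table (FPKM, log axis), blue points for Nan/+ livers and grey points for wild-type livers, 1 deposited value for each group of 3 livers. The Nan/+ point lies right of the wild-type point for 8 genes, farthest for Pdzk1ip1 (304 against 13.2 FPKM) and Insl6 (8.01 against 0.41 FPKM), and left of it for Pklr (81.0 against 227 FPKM).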

How the data were processed

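A 4sU gene table, a liver gene table and the peak lists of KLF1 and Nan-KLF1 were used as the authors deposited them. Per the submitters' processing notes, TopHat2 2.0.10, MACS 1.4.2 and build mm9 were used; what computed the levels and q values, or annotated the peaks, is not given in the sources used here. Levels are FPKM, deposited as 1 value per group, and a p-value, q value or log2 fold change is that of the authors' own comparison. Fold enrichment, a ratio of ChIP over input, and the score that ranks each peak are the authors'. Every gene of the 4sU table passed the authors' selection, so shares are read against the rest of that table and not against the genome.

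Members were found by the stated limits. They, the role groups and the marker lists were chosen with earlier results of these data known. A gene was called at a q of at most 0.05. Named with levels were members that were among the 10 highest in either line, called in both lines, assigned a peak, in a list, in the liver table or among the 5 largest ratios in either direction, and others by role. A ratio between the lines used no pseudocount and was named for a gene only where both levels exceeded 0.1 FPKM. Peak overlap was at least 1 bp. Distances run from the summit to the nearest edge of the locus, since the tables carry no strand. Shares carry 95% Wilson intervals, computed with Python 3.11.15 and scipy 1.17.1, for counting error only. The depth of the libraries is unknown, as the files hold no counts. Set membership, overlaps and motif searches were tested on simulated data. Printed peak starts are those of the lists. Alternatives tried were other limits, thresholds, pseudocounts, peak rules and overlaps. The values of 1 member are not reported here, though it is in the counts.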

Additional observations from a re-analysis of the deposited data

How the results depend on the processing

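No paired analysis was possible because each group has 1 deposited value per gene, and for the same reason leaving out each replicate was not run. With 91 members as reported, a limit of 0.05 FPKM in K1 leaves 0, since K1 is listed at 0.1 FPKM, while 2 FPKM in either line leaves 55 and 5 FPKM leaves 16. A q of at most 0.001 leaves 0 members called in K1-NanER cells and 0 in K1-ER cells, because the smallest q of the table is 0.00213; an unadjusted p of at most 0.05 gives 58 in K1-NanER cells and 66 in K1-ER cells. At 2-fold 21 members were higher in K1-NanER cells and 33 in K1-ER cells, and at 4-fold 14 and 22. The median log2 ratio of -0.54 was -0.53, -0.45 and -0.40 with pseudocounts of 0.1, 0.5 and 1 FPKM. Members with a Nan-KLF1 peak numbered 30 as reported, 9 for promoter peaks and 18 for peaks above the median fold enrichment of the list, and 48 for any summit within 50 kb. Members with a KLF1 peak numbered 37 as reported, 23 for promoter peaks and 23 for those above the median, and 48 for any summit within 10 kb and 68 within 50 kb. Members beside another gene of the table numbered 29 at 50 kb against 15 at 10 kb. The rules on any summit and on neighbours were chosen after seeing the data. The other 25 values kept their direction or stayed within 1.5 times the reported count, and 0 reversed.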

Other observations

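Members lay beside another gene of the table about as often as other genes did. A neighbour within 10 kb, measured between the edges of the loci, stood at 15 of 91 members (16.5%, 95% Wilson interval 10.3 to 25.4) and at 302 of 1464 other genes (20.6%, 18.6 to 22.8). Member and neighbour were called higher in a shared line in 15 of the 15 cases, and in 129 of the 302 among other genes. The 15 count 3 pairs of members from both sides, 2 of them on a shared locus. Within 50 kb the counts were 24 of 29 and 237 of 540. Each of the 91 members is called higher in at least 1 line, so nothing is read from these counts.

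Several of these neighbours were already transcribed in K1 cells. Josd2, a deubiquitinase 0.228 kb from Aspdh, was at 26.7 FPKM in K1-NanER cells, 132 FPKM in K1-ER cells and 43.9 FPKM in K1 cells. Crip2, a LIM protein 6.50 kb from Crip1, was at 52.0 FPKM in K1-NanER cells, 112 FPKM in K1-ER cells and 41.7 FPKM in K1 cells. Both were called higher in K1-ER cells alone in the authors' deposited table, as were Aspdh and Crip1. Fbxo44, 0.603 kb from Fbxo2, was at 6.08 FPKM in K1-NanER cells, 28.1 FPKM in K1-ER cells and 9.59 FPKM in K1 cells. Jak2, the kinase of the erythropoietin receptor, lies 8.27 kb from Insl6 and was at 26.5 FPKM in K1-NanER cells, 6.23 FPKM in K1-ER cells and 3.05 FPKM in K1 cells. In the authors' deposited table Jak2 had a q of 0.00213 in K1-NanER cells and 0.128 in K1-ER cells. Insl6 likewise had its higher level in K1-NanER cells. Cib2 and Sh2d7, both members, lie 0.331 kb apart and both were higher in K1-NanER cells, where Sh2d7 was at 1.67 FPKM, against 0.431 FPKM in K1-ER cells. Whether reads of one gene of such a pair were counted for the other was not tested.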
